A study of Mus musculus with 8 samples.

Results

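Cytochrome P450 genes outside the Cyp3a family were followed through mouse liver development. The members were the genes whose symbol starts with Cyp and a digit, without the 9 Cyp3a rows and the 5 rows of sterol and bile acid synthesis (Cyp7a1, Cyp7b1, Cyp8b1, Cyp27a1 and Cyp51). They were selected on a read count sum of at least 10 over the 8 samples, so that they were chosen partly by measured values. This gave 84 genes of the 101 P450 rows and of 22059 genes in all. Just outside the limit lay Cyp24a1 and Cyp2j13 with 3 reads each and Cyp2j12 with 5 reads, and just inside it lay Cyp11b1 with 11 and Cyp11b2 with 20 reads. A filter on low counts passed 74 of the 84 members. The other 10 (Cyp11b1, Cyp11b2, Cyp4x1, Cyp2b23, Cyp2b19, Cyp2j11, Cyp4a30b-ps, Cyp4a29-ps, Cyp2ab1 and Cyp4f41-ps) had count sums of 11 to 45 and were not tested.

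Poly(A) RNA of whole liver from the inbred mouse strain FVB (FVB/NJ in the study's methods) was sequenced at embryonic day 18 (E18), postnatal days 14 (P14) and 28 (P28) and in adults of 3 months. Each stage had 2 samples, without genetic change or treatment. The labels do not say that the 2 samples of a stage were separate animals or single animals, so a p-value here measures the spread between these samples. Between 68154675 and 106055723 reads per sample lay on genes. Levels are given as TMM-scaled RPKM, the reads per kilobase of transcript relative to the reads on genes after the TMM scaling of edgeR, and differences as log2 fold changes of the later over the earlier stage.

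P450 enzymes are haem proteins that insert an oxygen atom into their substrate with electrons from P450 reductase or, in mitochondria, from ferredoxin. Enzymes of the Cyp1 and Cyp2 families are known for the oxidation of drugs, toxins and steroids in hepatocytes, and those of the Cyp4 family for the hydroxylation of fatty acids and eicosanoids. The nuclear receptors CAR and PXR, PPARα and the receptor Ahr are known to control many of these genes. In adult mice several of them are expressed in a sex-dependent manner under growth hormone.

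The samples differed in sex-linked transcripts. The labels give no sex, and the study's methods call adult mice of 3 months male, without naming these libraries, and name no sex for E18, P14 or P28. The first E18 sample had 107378 Xist reads and 1 read over 4 Y-linked genes, and the second E18 sample had 10229 Xist and 9714 Y-linked reads. The first P14 sample had 50 Xist and 11188 Y-linked reads, and the second P14 sample 50828 and 1088. The 4 P28 and adult samples had 43 to 78 Xist reads and 8417 to 10900 Y-linked reads. Thus the second sample of E18 and of P14 carried many reads of both kinds. The E18 samples also had markers of other tissues. Erythroid markers summed to levels of 5370 and 7070 at E18 and to 51.1 to 71.4 later, and the hepatocyte markers to 22300 and 22900 at E18 and 42700 to 117000 later. Of 6 listed exocrine pancreas genes, 5 fell and Cela1 rose from E18 to adult. Their summed level was 108 and 203 at E18, 26 to 26.3 at P14 and 94.6 to 107 in the P28 and adult samples, where Cela1 made up nearly all of it. The pancreas factor Ptf1a was at 0.377 and 0.921 at E18 and at 0 in all 6 later samples. Of 5 listed intestinal genes, 4 fell and Fabp2 rose, and their sum was 21.6 to 28.1 at E18 and 75.5 to 206 later, with Fabp2 the largest part of the later sums. The intestinal factor Cdx2 was at 2.15 and 1.16 at E18 and at most 0.00801 later. Of 5 listed genes of the adrenal cortex, 4 were tested, of which 3 fell from E18 to adult, and Star did not pass the test. Their sum was 16.7 to 20.8 at E18, 14 to 17.5 at P14 and 0.811 to 0.896 in adult, and the adrenal receptor gene Mc2r was at 0.569 and 0.489 at E18 against at most 0.0096 later. In whole tissue, fewer cells of a type and less RNA per cell cannot be told apart.

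The summed level of the 84 genes was higher at each later stage. It went from 134.9 and 122.3 at E18 to 6348 and 5575 at P14, then to 10170 and 10650 at P28 and finally 15150 and 14430 in adult. The stages did not overlap. The mean was 46.4-fold higher at P14 than at E18, 1.75-fold higher at P28 than at P14 and 1.42-fold higher in adult than at P28. As a share of all gene reads, the members took 0.0372 to 0.0427% at E18 and 2.38 to 2.4% in adult.

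The make-up of this sum changed with stage. At E18 the Cyp2d subfamily held 43.7% ± 1.24 (SD, n = 2) of the summed level and Cyp2c 24.4% ± 2.31, while Cyp2e, which is Cyp2e1 alone, held 0.924% ± 0.211. From P14 on, Cyp2e1 was the largest single contributor with 57.7% ± 0.566 at P14, then 45.9% ± 0.514 at P28 and finally 54% ± 1.23 in adult. Cyp2f, which is Cyp2f2 alone, went from 1.06% ± 0.114 at P14 to 8.38% ± 0.791 at P28. The share of Cyp2c was 18.8% ± 1.11 at P14, then 22.8% ± 0.129 at P28 and finally 16% ± 0.168 in adult. Cyp4a held 1.69% ± 0.0525 and Cyp2b 1.14% ± 0.158 at P14, and 0.138% ± 0.0172 and 0.0205% ± 0.012 in adult. These shares are given as a description, with no test.

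**Figure D1:**
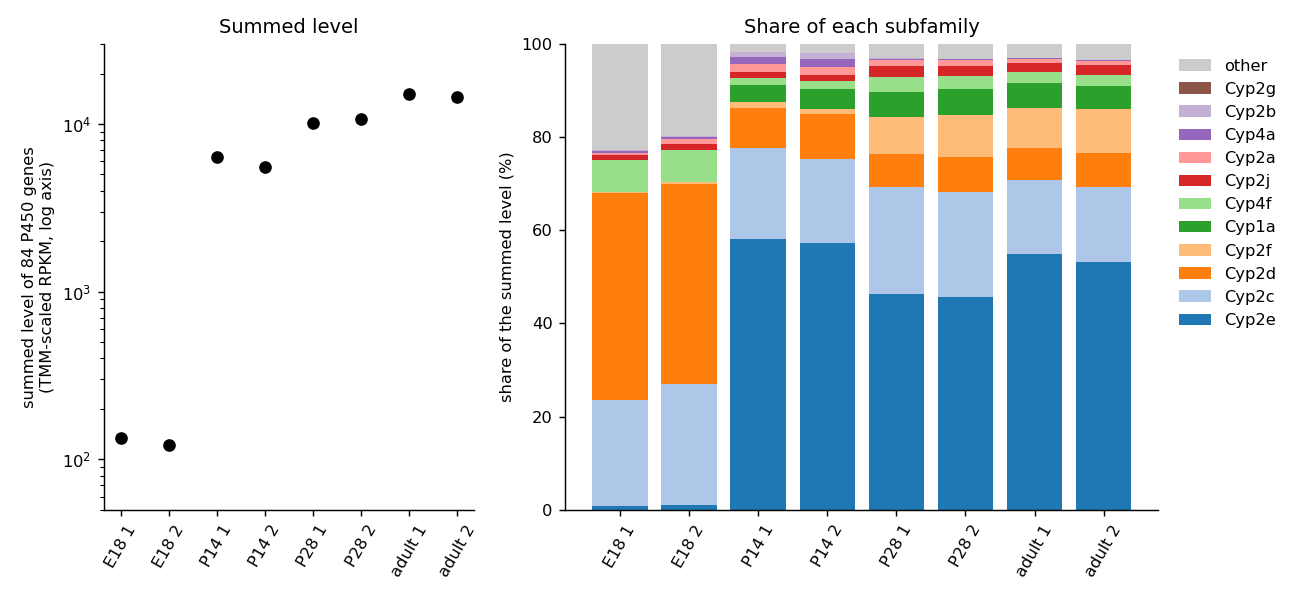
Left, summed level of the 84 P450 genes in each sample (TMM-scaled RPKM, log axis), and right, the share of each subfamily in that sum (%). Cyp2d fills 44.6 and 42.8% of the bars of the E18 samples, and Cyp2e1 45.6 to 58.1% of the later ones.

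A small number of genes made up most of each sum. At E18 these were Cyp2d26 with 28.8%, Cyp2c70 with 13.4% and Cyp2c44 with 10.7% of the summed level. At P14 they were Cyp2e1 with 57.7%, Cyp2c70 with 15% and Cyp2d26 with 6.36%. At P28 Cyp2c29 (9.7%) and Cyp2f2 (8.39%) followed Cyp2e1, and in adult Cyp2f2 (9.13%) and Cyp2c70 (7.03%) did. The top 10 genes held 89.4 to 92.4% of the sum at each stage.

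From E18 to adult, 59 of the 74 tested members rose and 3 fell (edgeR quasi-likelihood test, Benjamini-Hochberg false discovery rate below 0.1 over 17081 genes, change over 3-fold). The genes that fell were Cyp2w1, Cyp11a1 and Cyp4f18. Of all genes tested, 16.8% rose and 23.8% fell under the same criteria. The median log2 fold change was 4.79 over the members and -0.11 over all genes. With the 4 tested members that had no read at E18 set to the bound given by 3 reads per library, the members' median was 4.67. Library size alone, without TMM, moved the median of all genes from -0.11 to -0.95 and that of the members to 3.94. Fitted without the first E18 sample, or without the second, 59 members rose and 3 fell, with the lone sample taken to vary like the others.

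From E18 to P14, 56 members rose and 4 fell, against 13.8% and 15.4% of all genes. The 4 were Cyp11a1, Cyp2w1, Cyp4a12a and Cyp4a12b. The counts were 57 and 4 without the first E18 sample and 54 and 4 without the second P14 sample. From P14 to P28, 31 members rose and 6 fell, against 3.61% and 5.98% of all genes. The 6 were Cyp2b13, Cyp4a14, Cyp2a22, Cyp2b9, Cyp11a1 and Cyp4f18. Without the second P28 sample, the log2 rises of Cyp2d11 (1.5), Cyp2d12 (1.55), Cyp1a1 (1.58), Cyp2c68 (1.48) and Cyp2a5 (1.25) were under 3-fold. Without the second P14 sample, that of Cyp2d11 was 1.52. From P28 to adult, 0 members rose and 8 fell, against 0.767% and 2.24% of all genes. The 8 were Cyp4a14, Cyp4a10, Cyp4a31, Cyp2b9, Cyp2b13, Cyp2c38, Cyp2c39 and Cyp2c55. DESeq2 also called 0 higher. At an unadjusted p below 0.05 in edgeR, 23 members were higher and 17 lower by any fold, against 11.9% and 17% of all genes. The count of risers in this last interval was 3 without the second P28 sample (Cyp2a5, Cyp2d9 and Cyp2d12) and 1 without the second adult sample (Cyp2a5). The mean level was highest at E18 for 7 of the 74 members, at P14 for 12, at P28 for 21 and in adult for 34. Of all genes tested, 42.8%, 18%, 13.6% and 25.5% were highest at these stages.

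**Figure D2:**
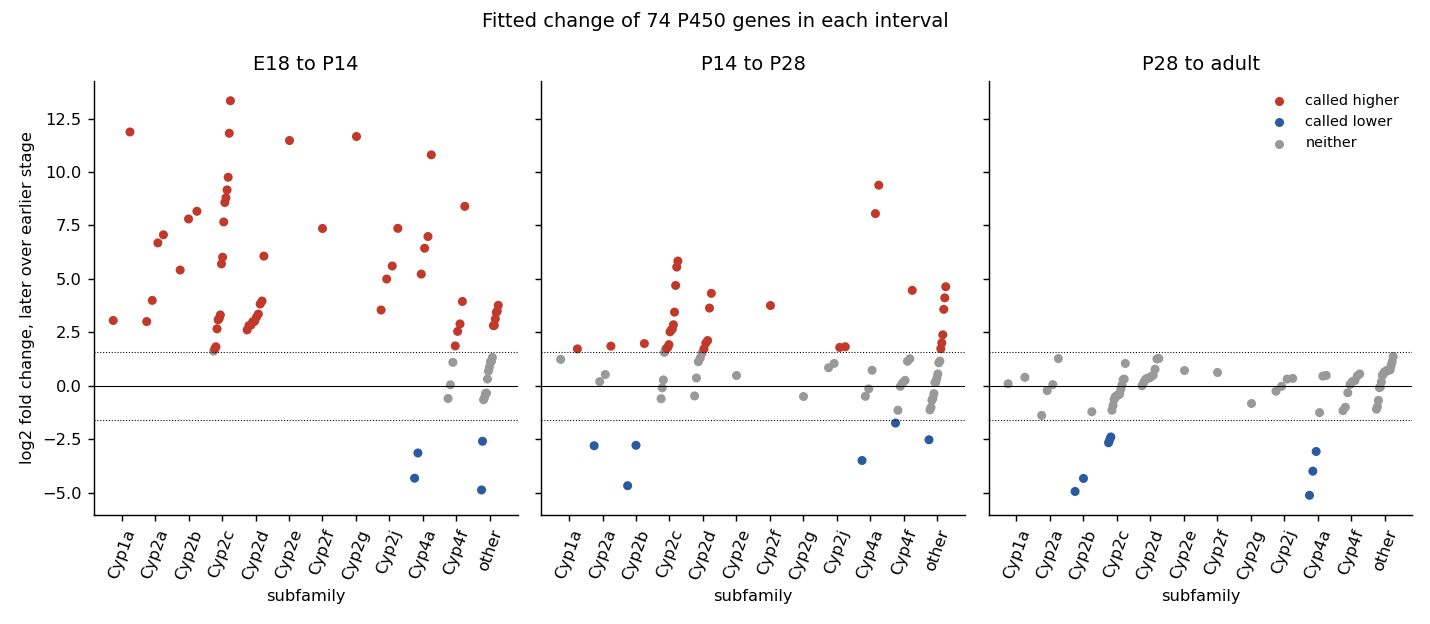
Fitted log2 fold change of each of the 74 tested P450 genes in 3 intervals, grouped by subfamily. Red points rose and blue points fell past both thresholds, grey points did neither, and dotted lines mark 3-fold. In the interval from P28 to adult there is no red point and the 8 blue points lie in Cyp2b, Cyp2c and Cyp4a.

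Among the enzymes of drug and toxin oxidation, Cyp2e1, which oxidises ethanol and acetaminophen, had the highest level. It stood at 1.05 and 1.31 in E18 liver, 3687 and 3193 by P14, 4712 and 4856 by P28 and 8319 and 7671 in adult. The stages did not overlap. The log2 fold change from E18 to P14 was 11.51 ± 0.23 (SE, adjusted p = 3.8e-09, edgeR), and the steps of 0.48 ± 0.15 (adjusted p = 0.028) to P28 and of 0.74 ± 0.15 (adjusted p = 0.013) to adult stayed under 3-fold. Cyp1a2, which metabolises caffeine and is a target of Ahr, had levels of 0.0457 and 0.0864 in the E18 samples, 242.4 and 248.4 in those of P14, 553.5 and 601.2 in those of P28 and 809.9 and 704.4 in adult. Its stages did not overlap. It rose by 11.87 ± 0.25 on the log2 scale from E18 to P14 (adjusted p = 4.5e-09), and the steps of 1.23 ± 0.15 (adjusted p = 0.00022) to P28 and of 0.39 ± 0.14 (adjusted p = 0.11) to adult stayed under 3-fold. Its neighbour Cyp1a1, known for strong induction by Ahr ligands, reached a level of 1.03 at most, and it rose by 4.86 ± 0.27 from E18 to adult (adjusted p = 2.3e-07).

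Cyp1a2 and Cyp2e1 were among the 5 largest fitted rises from E18 to adult, which were Cyp2c29, Cyp1a2, Cyp4f14, Cyp2c54 and Cyp2e1. At E18 Cyp2c54 had 3 and 1 reads, Cyp2c29 0 and 6 and Cyp4f14 9 and 8, so that the order of these rises is uncertain. The bases just upstream of the RefSeq start (GRCm38.p6) are shown for Cyp1a2 and Cyp2e1, to show the letters of the TATA box (TATAAA) in both. For Cyp2c29 and Cyp4f14 the same window overlapped the annotated gene span, and Cyp2c54 had no promoter in the RefSeq table, so these are not shown. Each stretch is the last 60 bases before the start, 5′ to 3′ on the strand of the gene, with TATAAA in capitals.
Cyp1a2 (chr9:57683656-57683715, minus strand): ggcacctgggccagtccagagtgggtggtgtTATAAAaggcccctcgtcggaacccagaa
Cyp2e1 (chr7:140763759-140763818, plus strand): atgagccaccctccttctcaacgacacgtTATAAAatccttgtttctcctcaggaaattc
The match begins 29 bases before the start of Cyp1a2 and 31 bases before that of Cyp2e1. TATAAA, on either strand, was found in the 250 bases upstream of 22 of the 61 members with a promoter in the RefSeq table (36.1%), and in 14.3% of 27025 genes with a promoter.

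Cyp2f2, which activates naphthalene, rose in both of the first intervals. Its levels were 0.222 and 0.548 in the E18 samples, 72.7 and 54.8 in those of P14, 795.3 and 951.8 in those of P28 and 1321 and 1378 in adult. No 2 stages overlapped. The log2 fold change was 7.39 ± 0.38 from E18 to P14 (adjusted p = 2.2e-07) and 3.78 ± 0.3 from P14 to P28 (adjusted p = 2.8e-05, edgeR), and 0.63 ± 0.27 from P28 to adult (adjusted p = 0.17). Cyp2g1, known from olfactory mucosa, had no read at E18 and levels of 2.2 and 2.69 at P14, then 1.43 and 2.08 at P28 and finally 1.31 and 0.732 in adult. Against 3 reads per library, its mean was at least 196-fold higher at P14 and at least 81.9-fold higher in adult.

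The 16 Cyp2c genes encode epoxygenases and hydroxylases of drugs and arachidonic acid. From E18 to adult 16 of 16 rose, and from E18 to P14 15 of 16. The 15 include Cyp2c66, with 2 reads at E18 and 10 at P14, a ratio of 7.22 (95% counting interval 1.54 to 67.8). Its log2 fold change in that interval was 0.46 without the second P14 sample and 1.85 without the second E18 sample. From P14 to P28 11 rose and none of the 16 fell, while from P28 to adult 3 fell and none rose. Cyp2c65 had 0 to 18 reads per sample, and its rise of 2.85 ± 1.18 (log2, adjusted p = 0.05) from E18 to adult was lost without the second E18 sample (1.97, adjusted p = 0.18) and without the first adult sample (2.6, adjusted p = 0.16).

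Cyp2c29, a drug-metabolising enzyme and epoxygenase, showed the largest fitted rise of the 74 members. It had 0 and 6 reads at E18, corresponding to levels of 0 and 0.0275, and levels of 141.8 and 139.4 at P14, then 1046 and 975.2 at P28 and finally 1001 and 810.9 in adult. The P28 and adult samples overlapped. From E18 to adult its log2 fold change was 16.02 ± 0.43 (adjusted p = 4.3e-09), and from P28 to adult -0.16 ± 0.21 (adjusted p = 0.68, edgeR). The SE of the change from E18 rests on those 0 and 6 reads and is too narrow. Cyp2c70, the enzyme that makes muricholic acids in mice, had the second highest level of the 84 members at E18 with 18 and 16.5. It was at 1018 and 774.7 at P14, then 718.3 and 954.2 at P28 and finally 935.9 and 1144 in adult, so that the later stages overlapped.

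A group of Cyp2c genes was highest at P28. Cyp2c54 stood at 0.0122 and 0.00461 in E18 liver, 1.94 and 1.88 by P14, 112.1 and 104.5 by P28 and 90.7 and 47.6 in adult. Its E18 levels were 3 and 1 reads, so that the size of its rise from E18 is uncertain. From P14 to P28 Cyp2c54 rose by 5.83 ± 0.3 on the log2 scale (adjusted p = 2.7e-06). Cyp2c39, which can hydroxylate retinoic acid, had 1 read in each E18 sample, and was at 17.7 and 17.2 at P14, then 74.4 and 46.7 at P28 and finally 10.4 and 8.57 in adult. The P14, P28 and adult samples of Cyp2c39 did not overlap. From P28 to adult Cyp2c39 fell by 2.67 ± 0.2 on the log2 scale (adjusted p = 0.00012, edgeR). Its rise from P14 to P28 of 1.8 ± 0.19 (adjusted p = 0.00014) was 1.42 without the first P28 sample and then under 3-fold. Its 2 reads at E18 against 5863 at P14 gave a ratio of 4230 (95% counting interval 1170 to 35000).

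Cyp2c38 had no read at E18. Its levels were 0.194 and 0.235 at P14, then 13.3 and 6.72 at P28 and finally 2.19 and 1.62 in adult. Thus P28 was highest in both samples. The mean at P28 was at least 1250-fold above 3 reads per library at E18, and from P28 to adult Cyp2c38 fell by 2.4 ± 0.32 (log2, adjusted p = 0.0027). The pseudogene Cyp2c53-ps had no read at E18, 3 and 13 reads or levels of 0.0227 and 0.101 in the P14 samples, and levels of 1.18 and 2.04 in those of P28 and 3.66 and 2.94 in adult. From P14 to P28 it rose by 4.69 ± 0.51 (log2, adjusted p = 0.00024), which was 6.08 without the second P14 sample and 3.98 without the first.

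Cyp2c55, known from the intestine, had levels of 0.0145 and 0.0123 in the E18 samples, 5.48 and 5.31 in those of P14, 4 and 3.06 in those of P28 and 0.726 and 0.5 in adult. From P28 to adult it fell by 2.53 ± 0.21 (adjusted p = 0.00018). Of the intestinal genes, Fabp2 was at 192.1 and 196.5 by P14, 167.1 and 169.9 by P28 and 79.25 and 72.13 in adult, while Cdx2 was at 0 to 0.00801 in these samples. The part of intestinal cells in the level of Cyp2c55 was not tested.

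The 10 Cyp2d genes are relatives of the human drug-metabolising CYP2D6. They rose from E18 to adult in 10 of 10 cases and from E18 to P14 in 10 of 10, and 5 rose from P14 to P28. Of these 5, Cyp2d11 and Cyp2d12 had log2 rises of 1.5 and 1.55, under 3-fold, without the second P28 sample. Cyp2d26 had the highest level of the 84 members at E18 with 39.2 and 35. It was at 385 and 373.8 at P14, then 280.7 and 262.3 at P28 and finally 351 and 324.5 in adult. Its level was therefore lower in both P28 samples than in both P14 samples (log2 fold change -0.48 ± 0.11, adjusted p = 0.0055, under 3-fold). Cyp2d13, a transcribed pseudogene in RefSeq, went from 0.0744 and 0.0844 at E18 to 5.2 and 5.48 at P14, then to 105 and 108.3 at P28 and finally 122 and 118.8 in adult. It rose by 6.06 ± 0.13 (adjusted p = 4.7e-09) and then by 4.32 ± 0.09 (adjusted p = 4.7e-08) in the first and second interval. Its E18 levels were 17 and 17 reads, so that the SE of the first rise is too narrow.

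Cyp2d9, a testosterone 16α-hydroxylase known to be higher in adult males, stood at 0.567 and 0.203 in E18 liver, 5.41 and 6.75 by P14, 53.1 and 97.1 by P28 and 168.2 and 195.1 in adult. The stages did not overlap. The rise from P14 to P28 was 3.63 ± 0.37 (log2, adjusted p = 1e-04). The step from P28 to adult was 1.27 ± 0.33 (adjusted p = 0.036) and under 3-fold, and without the second P28 sample it was 1.77 and past 3-fold (adjusted p = 0.019). In the reference transcripts, 9.86% of the windows of 100 bases of Cyp2d9 also occurred in another gene, chiefly Cyp2d10.

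**Figure D3:**
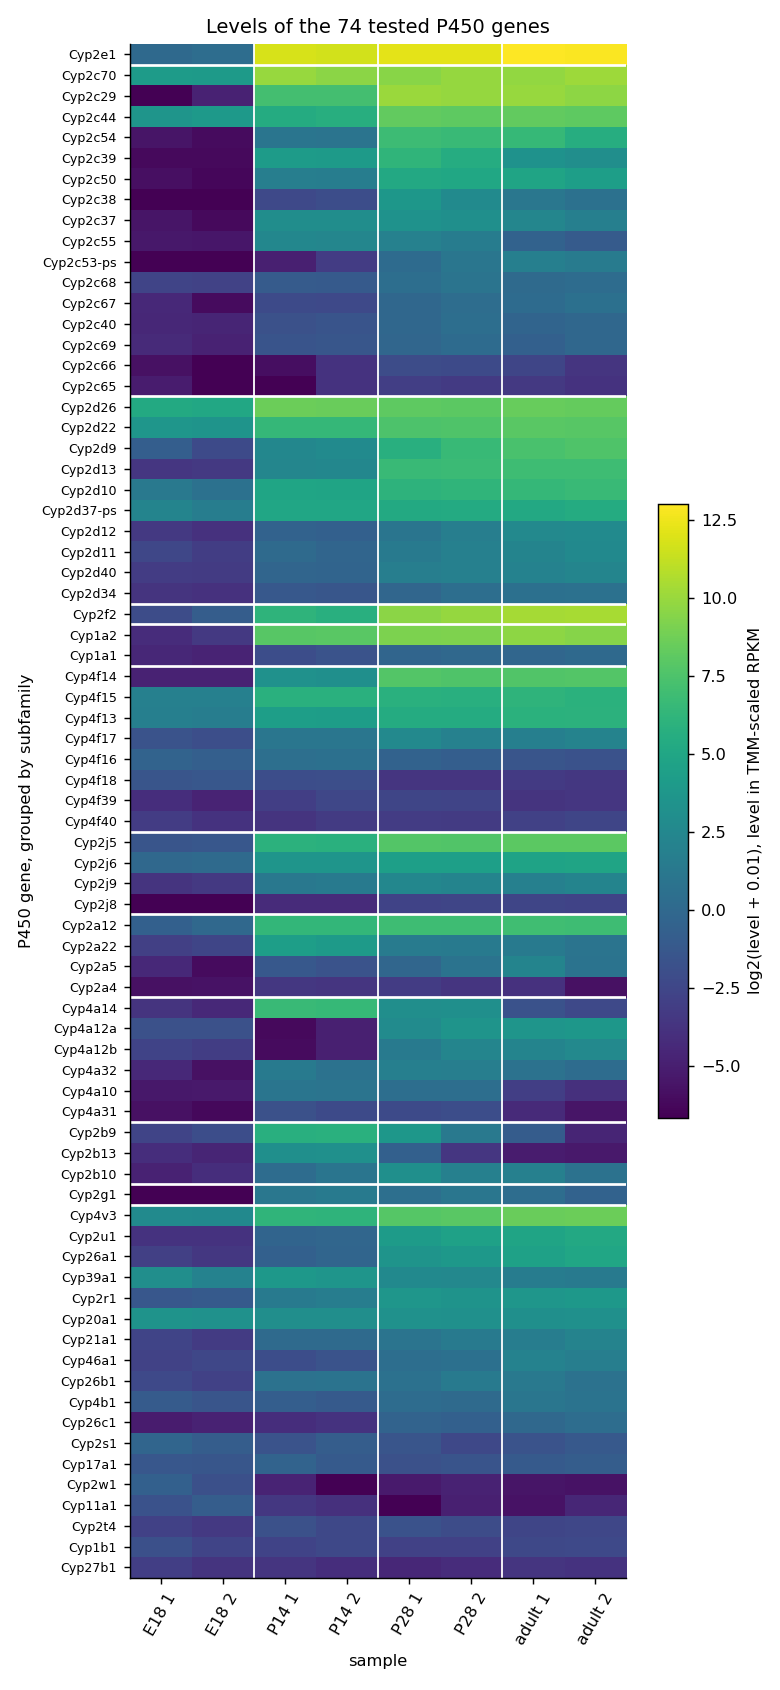
Level of the 74 tested P450 genes (rows, grouped by subfamily) in each of the 8 samples (columns), as log2 of the TMM-scaled RPKM plus 0.01. Yellow is high and dark blue is low, and most rows brighten after the E18 columns, while Cyp4a12a and Cyp4a12b are darkest at P14.

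The 3 tested Cyp2b genes were highest at P14 or P28, and 2 of them fell from P28 to adult. Cyp2b9, known to be higher in adult females, had levels of 0.157 and 0.239 in the E18 samples, 55 and 58.3 in those of P14, 13.8 and 2.51 in those of P28 and 0.522 and 0.0321 in adult. The P14 samples were above all the others. It rose by 8.16 ± 0.95 (log2, adjusted p = 5.1e-05) to P14, fell by 2.79 ± 0.7 (adjusted p = 0.011) to P28 and fell by 4.95 ± 0.94 (adjusted p = 0.0097, edgeR) to adult. The last step ranged from -3.24 without the first P28 sample to -7.97 without the first adult sample, and the step from P14 to P28 was -4.5 without the first P28 sample.

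Cyp2b13, which is known to share the female pattern in adult liver, had the same course at a lower level. It went from 0.0499 and 0.0305 at E18 to 9.07 and 9.45 at P14, then to 0.633 and 0.0746 at P28 and finally 0.0183 and 0.0161 in adult. It fell by 4.68 ± 0.57 (log2, adjusted p = 0.00025, edgeR) from P14 to P28. The change from P28 to adult was -4.34 ± 1.14 (adjusted p = 0.036). It was lost without the first adult sample (-4.43, adjusted p = 0.14) or the second (-4.25, adjusted p = 0.17), and it was -2.08 without the first P28 sample. In both genes the first P28 sample was above the second. The P14 samples had like levels of Cyp2b9 and Cyp2b13. Their Xist reads were 50 and 50828, and their Y-linked reads 11188 and 1088.

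Both promoters are shown because these genes moved together. The stretches are bases 250 to 108 upstream of the RefSeq start (GRCm38.p6), 143 bases each. They stop there because nearer bases lie inside the annotated RefSeq gene span of Cyp2b9, Cyp2b13 or Cyp2b10. Capitals in Cyp2b13 mark its mismatches to Cyp2b9.
Cyp2b9 (chr7:26173159-26173301, plus strand): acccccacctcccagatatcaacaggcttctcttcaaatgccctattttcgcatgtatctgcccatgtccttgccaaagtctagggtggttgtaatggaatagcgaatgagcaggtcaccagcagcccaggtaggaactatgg
Cyp2b13 (chr7:26061245-26061387, plus strand): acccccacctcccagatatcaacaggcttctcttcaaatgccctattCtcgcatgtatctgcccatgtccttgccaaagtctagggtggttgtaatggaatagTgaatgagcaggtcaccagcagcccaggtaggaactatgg
Over the whole 250 bases, which include those inside a gene span, Cyp2b13 matched Cyp2b9 at 248 positions (99.2%). Cyp2b10 was 70% identical to Cyp2b9 in an alignment with gaps. The STAT core TTCNNNGAA, which reads the same on both strands, was found in these 250 bases in none of Cyp2b9, Cyp2b13 and Cyp2b10. It was found in 3 of the 61 members with a promoter (4.92%) and in 8.13% of all genes. In the transcripts, 1.18% of the windows of Cyp2b9 and 9.29% of those of Cyp2b13 occurred in another gene.

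Cyp2b10, the best known target of CAR, had another course. It stood at 0.0269 and 0.048 in E18 liver, 1.21 and 2 by P14, 8.86 and 3.68 by P28 and 3.74 and 1.66 in adult. Adult samples overlapped those of P14 and P28. It rose by 5.41 ± 0.71 (log2, adjusted p = 0.00011) to P14 and by 1.97 ± 0.47 (adjusted p = 0.009) to P28, and the second rise was 1.2 and under 3-fold without the first P28 sample.

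The 4 Cyp2a genes rose from E18 to P14. Cyp2a12, a steroid hydroxylase with the highest level of the subfamily, had levels of 0.654 and 0.982 in the E18 samples, 84.9 and 82.1 in those of P14, 117.5 and 121.5 in those of P28 and 125.9 and 120.8 in adult, a log2 fold change of 7.24 ± 0.19 from E18 to adult (adjusted p = 3.8e-09). Its close relative Cyp2a22 was highest at P14. Cyp2a22 went from 0.123 and 0.162 at E18 to 20.8 and 17.2 at P14, then to 2.83 and 2.58 at P28 and finally 2.76 and 1.85 in adult, and fell by 2.81 ± 0.2 from P14 to P28 (log2, adjusted p = 1.3e-05).

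Cyp2a5, the coumarin and nicotine hydroxylase, stood at 0.0378 and 0.00476 in E18 liver, 0.413 and 0.314 by P14, 0.868 and 1.77 by P28 and 4.57 and 1.79 in adult. The stages did not overlap, but the adult duplicates were far apart. It rose by 7.11 ± 0.74 (log2) from E18 to adult (adjusted p = 1.7e-05, edgeR), and its rise of 1.85 ± 0.54 from P14 to P28 (adjusted p = 0.021) was lost without the second P14 sample (1.66, adjusted p = 0.11) or the second P28 sample (1.25, adjusted p = 0.14). Cyp2a4, a testosterone 15α-hydroxylase higher in females, had 1 to 14 reads per sample and levels of 0.0084 and 0.00953 at E18 and 0.0601 and 0.00878 in adult. Its call from E18 to adult (log2 fold change 1.8 ± 0.92, adjusted p = 0.098) was lost when any of the 8 samples but the second adult sample was left out, and its direction turned without the first adult sample (-0.02). Cyp2a4 and Cyp2a5 shared 11.2 and 14.4% of their transcript windows with other genes, chiefly each other.

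**Figure D4:**
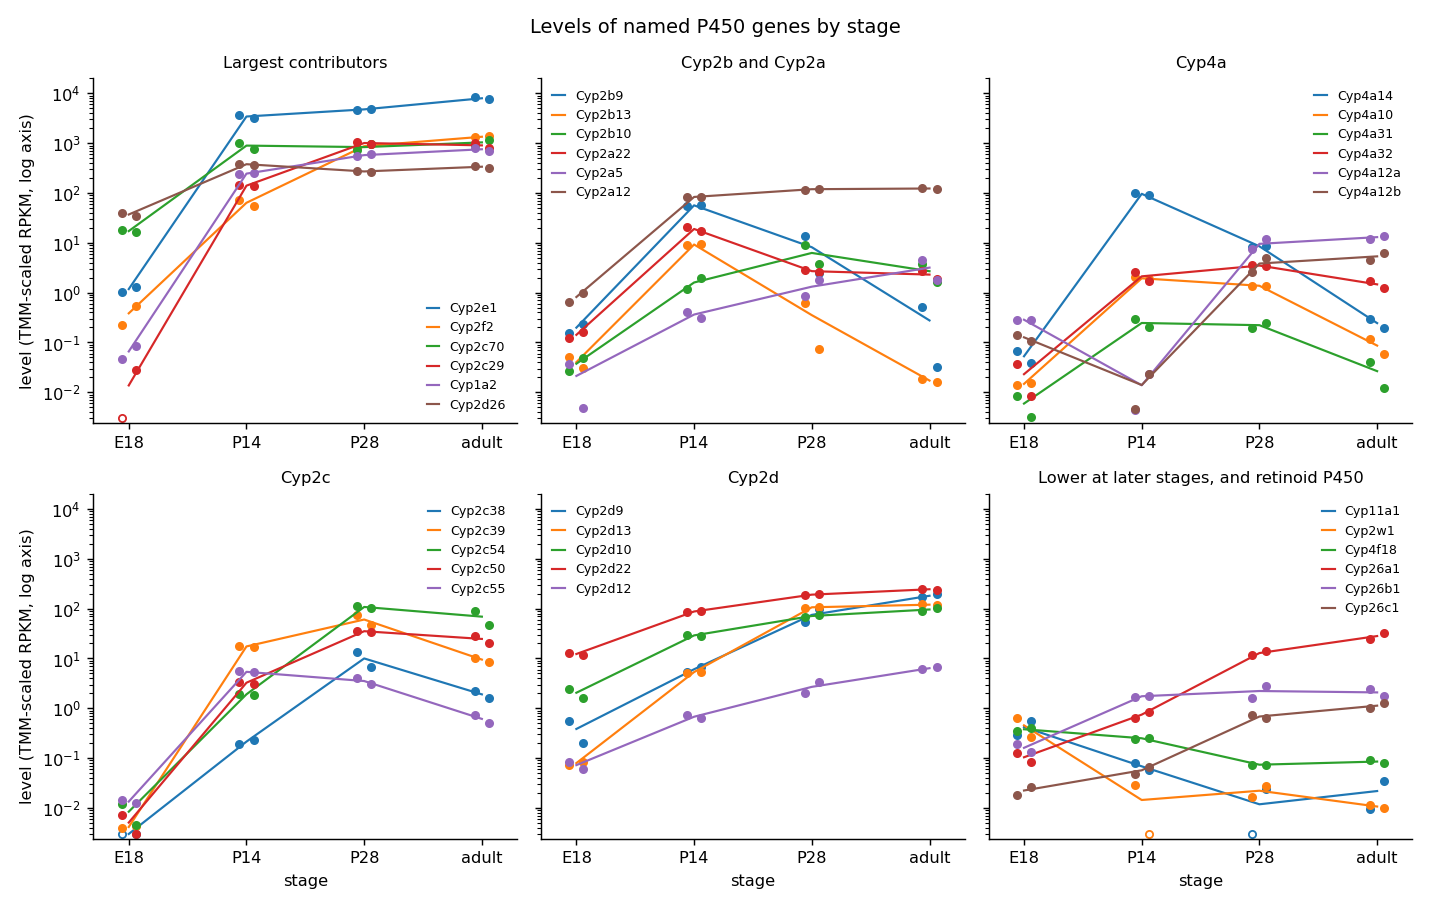
Level of named P450 genes by stage (TMM-scaled RPKM, log axis), with 1 point per sample and lines through the stage means. Open points had 0 reads and are drawn at 0.003. Cyp2b9, Cyp2b13 and Cyp4a14 peak at P14, and Cyp4a12a and Cyp4a12b have their lowest points there.

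The Cyp4a genes, which encode fatty acid ω-hydroxylases, followed opposite courses within 1 gene cluster on chromosome 4. Cyp4a14, a target of PPARα, had levels of 0.0664 and 0.0393 in the E18 samples, 100.3 and 92.6 in those of P14, 8.4 and 8.64 in those of P28 and 0.296 and 0.193 in adult. The 4 stages did not overlap. It rose by 10.8 ± 0.22 (log2, adjusted p = 3.8e-09), then fell by 3.5 ± 0.14 (adjusted p = 7.7e-07) to P28 and fell by 5.13 ± 0.18 (adjusted p = 5.3e-06, edgeR). Its call from E18 to adult of 2.16 ± 0.28 (adjusted p = 8.6e-05) was 1.32 and under 3-fold with library size alone.

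Cyp4a10, another PPARα target, went from 0.0138 and 0.0157 at E18 to 2.02 and 1.87 at P14, then to 1.39 and 1.36 at P28 and finally 0.115 and 0.0578 in adult. It fell by 4 ± 0.28 (log2, adjusted p = 7.9e-05) from P28 to adult. Cyp4a31 was at 0.291 and 0.201 at P14, then 0.199 and 0.245 at P28 and finally 0.0411 and 0.012 in adult, and fell by 3.08 ± 0.54 (adjusted p = 0.0069) from P28 to adult. Both genes were thus lower in both adult samples than in the P14 and P28 samples. In the transcripts, 12.7% of the windows of Cyp4a10 and 8.22% of those of Cyp4a31 occurred in another gene, chiefly Cyp4a32.

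Cyp4a12a, known as the male-specific arachidonic acid ω-hydroxylase of adult mice, stood at 0.286 and 0.287 in E18 liver, 0.0045 and 0.0232 by P14, 7.36 and 11.8 by P28 and 12.2 and 13.9 in adult. These P14 levels were 1 and 5 reads. Cyp4a12b had levels of 0.144 and 0.109 in the E18 samples, 0.00455 and 0.0234 in those of P14, 2.63 and 5.06 in those of P28 and 4.56 and 6.15 in adult. For both genes P14 lay below E18 and E18 below P28. Cyp4a12a fell by 4.33 ± 0.53 (log2, adjusted p = 6.8e-05) from E18 to P14 and rose by 9.38 ± 0.4 (adjusted p = 1.1e-06) from P14 to P28. Cyp4a12b fell by 3.15 ± 0.74 (adjusted p = 0.0038) and rose by 8.05 ± 0.54 (adjusted p = 1.1e-05, edgeR). The split between them is uncertain, since 35.8 and 36.2% of their transcript windows were shared, chiefly with each other. From P28 to adult the changes were 0.45 ± 0.21 (adjusted p = 0.2) and 0.48 ± 0.3 (adjusted p = 0.34).

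**Figure D5:**
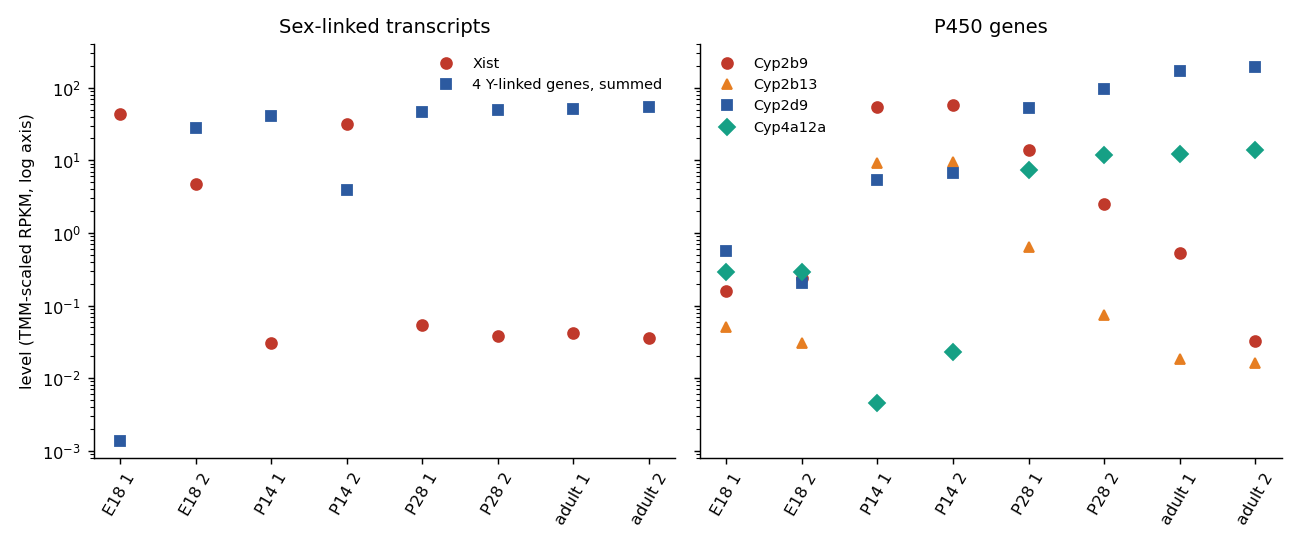
Left, level of Xist and the summed level of 4 Y-linked genes, and right, level of Cyp2b9, Cyp2b13, Cyp2d9 and Cyp4a12a, in each of the 8 samples (TMM-scaled RPKM, log axis). Xist is above 4 in 3 samples (the 2 E18 samples and the second P14 sample), and Cyp2b9 is at 55 and 58.3 in both P14 samples.

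The part of sex in these courses was not tested, nor was that of the samples with mixed sex-linked transcripts.

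The Cyp4f genes are known for the ω-hydroxylation of leukotriene B4. Of the 8 tested, 4 rose and 1 fell from E18 to adult. Cyp4f14 went from 0.027 and 0.0272 at E18 to 9.81 and 8.76 at P14, then to 217.1 and 191.6 at P28 and finally 210.8 and 216.5 in adult. It rose by 8.39 ± 0.18 (log2, adjusted p = 4.7e-09) to P14 and by 4.46 ± 0.12 (adjusted p = 1.8e-07) to P28, and the P28 and adult samples overlapped. Its E18 levels were 9 and 8 reads, so that the SE of the first rise is too narrow. Cyp4f15 had overlapping levels at P14 and P28. It stood at 3.74 and 3.7 in E18 liver, 56.1 and 58 by P14, 57.2 and 54.8 by P28 and 70.9 and 61.7 in adult. Cyp4f18, known from neutrophils, had levels of 0.356 and 0.403 in the E18 samples, 0.244 and 0.257 in those of P14, 0.0735 and 0.074 in those of P28 and 0.0909 and 0.0796 in adult, and fell by 2.15 ± 0.31 from E18 to adult (adjusted p = 0.00018).

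Of the Cyp2j genes, epoxygenases of arachidonic acid, 4 of 4 tested rose from E18 to P14. Cyp2j5 went from 0.361 and 0.385 at E18 to 64.2 and 58.8 at P14, then to 217.5 and 208 at P28 and finally 262.2 and 265.8 in adult. The stages did not overlap. It rose by 7.36 ± 0.13 (log2, adjusted p = 3e-09) to P14 and by 1.79 ± 0.1 (adjusted p = 4.8e-06, edgeR) to P28, and the step of 0.31 ± 0.1 (adjusted p = 0.07) to adult stayed under 3-fold.

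Among the enzymes with signalling substrates, the retinoic acid hydroxylase gene Cyp26a1 rose late. It stood at 0.125 and 0.0826 in E18 liver, 0.637 and 0.857 by P14, 11.7 and 14.1 by P28 and 24.4 and 32 in adult. The stages did not overlap. It rose by 4.11 ± 0.21 (log2, adjusted p = 2.8e-06) from P14 to P28 and by 1.13 ± 0.18 (adjusted p = 0.004), under 3-fold, to adult. Its chromosome 19 neighbour Cyp26c1 rose by 3.57 ± 0.33 (adjusted p = 5.7e-05) from P14 to P28, and Cyp26b1 rose by 3.43 ± 0.3 (adjusted p = 7.5e-06) from E18 to P14.

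Cyp2r1, the vitamin D 25-hydroxylase, had levels of 0.386 and 0.458 in the E18 samples, 2.74 and 3.19 in those of P14, 13 and 10.8 in those of P28 and 12.8 and 14.1 in adult. It rose by 2.81 ± 0.16 (log2, adjusted p = 5.1e-07) and then by 2 ± 0.15 (adjusted p = 1.6e-05). Cyp2u1, a fatty acid hydroxylase, went from 0.0618 and 0.0631 at E18 to 0.819 and 0.89 at P14, then to 17.8 and 24.6 at P28 and finally 28.1 and 37.9 in adult. It rose by 4.63 ± 0.21 from P14 to P28 (adjusted p = 1.3e-06). The 5 largest rises of that interval were those of Cyp4a12a, Cyp4a12b, Cyp2c54, Cyp2c38 and Cyp2c53-ps. Cyp46a1, the cholesterol 24-hydroxylase best known from neurons, rose by 2.38 ± 0.22 from P14 to P28 (adjusted p = 5.1e-05). From P28 to adult it had the largest positive change of the 74 members, 1.36 ± 0.19 (adjusted p = 0.0024), which was under 3-fold.

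Of the genes of steroid synthesis, Cyp21a1, the steroid 21-hydroxylase, had the highest level in adult. It was at 0.154 and 0.0977 at E18 and at 3.22 and 4.52 in adult, and rose by 4.93 ± 0.3 (log2, adjusted p = 4.3e-07). Cyp11a1, which cleaves the side chain of cholesterol in adrenal and gonad, stood at 0.296 and 0.544 in E18 liver, 0.0799 and 0.0569 by P14, 0 and 0.0237 by P28 and 0.00969 and 0.034 in adult. It fell by 4.17 ± 0.71 (log2) from E18 to adult (adjusted p = 0.00047). Its call from P14 to P28 (-2.53, adjusted p = 0.058) rested on 22 against 3 reads, a ratio of 0.163 (95% counting interval 0.0312 to 0.542), and was lost without the first P14 sample (-2.27, adjusted p = 0.18) or the first P28 sample (-1.51, adjusted p = 0.25). Of the adrenal markers, Mc2r was at 0 in 5 of the 6 samples after E18. Akr1b7 was at 13.1 and 9.78 at E18, 2.87 and 5.96 at P14 and 0.0551 and 0.0483 in adult. Hsd3b1 was at 6.48 and 5.84 at E18, 10.4 and 10.9 at P14 and 0.00928 and 0.0325 in adult. Star was at 0.638 and 0.589 at E18 and 0.746 and 0.801 in adult. The part of adrenal tissue in the level of Cyp11a1 was not tested. Cyp17a1, the 17α-hydroxylase, had levels of 0.403 and 0.368 in the E18 samples, 0.77 and 0.469 in those of P14, 0.279 and 0.334 in those of P28 and 0.458 and 0.548 in adult. After TMM scaling, E18 lay above P28 and below P14 and adult. Relative to reads on genes alone, E18 lay above adult. It had 103 and 83 of 86871322 and 79509520 reads at E18, and 49 and 67 of 68154675 and 74810384 in adult.

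Cyp2w1, known from fetal gut, went from 0.638 and 0.27 at E18 to 0.0289 and 0 at P14, then to 0.0165 and 0.0278 at P28 and finally 0.0114 and 0.00996 in adult. Both E18 samples were above the other 6. Its 184 reads at E18 against 2 in adult gave a ratio of 0.0228 (95% counting interval 0.00274 to 0.0835), with an adjusted p of 0.00046 in edgeR. The gut factor Cdx2 was likewise higher in the first than in the second E18 sample (2.15 and 1.16), while Fabp2 was lower in the first (5.76 and 8.63), and the part of gut tissue was not tested. Cyp1b1, an oestrogen hydroxylase of mesenchymal cells, stood at 0.274 and 0.156 in E18 liver, 0.147 and 0.186 by P14, 0.127 and 0.131 by P28 and 0.181 and 0.194 in adult. After TMM scaling, the E18, P14 and adult samples overlapped. Relative to reads on genes alone, both E18 samples (195 and 98 reads) lay above those of P14 (69 and 85) and adult (54 and 66). Cyp4b1, which hydroxylates fatty acids, had levels of 0.489 and 0.354 in the E18 samples, 0.589 and 0.456 in those of P14, 1.2 and 1.12 in those of P28 and 2.09 and 1.83 in adult. It rose by 2.21 ± 0.22 (log2) from E18 to adult (adjusted p = 1.4e-05), a change that was 1.36 and under 3-fold with library size alone.

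Cyp20a1, an orphan P450, stayed within narrow bounds after TMM scaling. It went from 11.2 and 10.1 at E18 to 8.41 and 8.3 at P14, then to 9.62 and 9.12 at P28 and finally 8.67 and 9.25 in adult (-0.25 ± 0.1 from E18 to adult, log2, adjusted p = 0.048). Without that scaling its share of reads on genes was lower in adult. It had 2331 and 1858 of 86871322 and 79509520 reads at E18, and 757 and 922 of 68154675 and 74810384 in adult. Cyp39a1, an oxysterol 7α-hydroxylase, stood at 8.25 and 4.18 in E18 liver, 14.7 and 12.3 by P14, 6.49 and 5.88 by P28 and 3.01 and 2.76 in adult. Its change from E18 to adult of -1.11 ± 0.27 (adjusted p = 0.004) was under 3-fold, and was -1.97 and past 3-fold with library size alone.

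The chromosome 7 cluster, with gaps of at most 1 Mb between neighbours, held 13 members, from Cyp2s1 over the Cyp2b, Cyp2a and Cyp2g genes to Cyp2f2 and Cyp2t4. Cyp2b9 and Cyp2f2 of this cluster went from 56.7 ± 2.34 and 63.7 ± 12.6 at P14 to 0.277 ± 0.346 and 1349 ± 40.3 in adult (mean level ± SD, n = 2). The chromosome 19 cluster held 15 of the 16 Cyp2c genes, with Cyp2c44 apart from it, and the chromosome 15 cluster held the 10 Cyp2d genes. Of the 83 members with a reference transcript, 43 shared at least 1 window of 100 bases with another gene. For 6 of them (Cyp4a32, Cyp2c67, Cyp4a12a, Cyp4a12b, Cyp2c69 and Cyp2c40) over 20% of the windows were shared, so that their separate counts are uncertain.

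Of 7 listed genes for electron supply and haem, 6 rose from E18 to adult and 5 from E18 to P14. Por, the P450 reductase, had levels of 22.1 and 19.3 in the E18 samples, 167 and 157.6 in those of P14, 73.9 and 89.4 in those of P28 and 160 and 114 in adult, a log2 fold change of 2.73 ± 0.18 from E18 to adult (adjusted p = 6.5e-07). Alas1, the first enzyme of haem synthesis, went from 11.9 and 13.4 at E18 to 253.8 and 160.1 at P14, then to 107.4 and 33.1 at P28 and finally 353.1 and 305.9 in adult. The P28 duplicates of Alas1 were far apart, with the first above the second as for Cyp2b9, Cyp2b13 and Cyp2b10. The order was the other way for Cyp2d9, Cyp4a12b, Bcl6 and Dbp. Alas1 rose by 2.23 ± 0.46 from P28 to adult (adjusted p = 0.014).

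Of 22 known regulators of P450 genes, 15 rose and 1 fell from E18 to adult. The CAR gene Nr1i3 rose by 5.38 ± 0.16 (log2, adjusted p = 6.7e-09), the PXR gene Nr1i2 by 2.69 ± 0.13 (adjusted p = 1.1e-07), Ppara by 2.84 ± 0.15 (adjusted p = 1.8e-07) and Cebpa by 3.53 ± 0.14 (adjusted p = 2.6e-08, edgeR). Bcl6, a repressor known to be higher in adult males, stood at 0.425 and 0.47 in E18 liver, 3.32 and 3.05 by P14, 9.74 and 20.7 by P28 and 19.6 and 15 in adult. Cux2, a factor known to be higher in adult females, had levels of 3.16 and 1.98 in the E18 samples, 1.21 and 2.06 in those of P14, 0.259 and 0.268 in those of P28 and 0.0807 and 0.0648 in adult. Bcl6 and Cux2 thus ended in opposite directions, with log2 fold changes of 5.27 ± 0.35 (adjusted p = 8.1e-07) and -5.14 ± 0.37 (adjusted p = 1.3e-06) from E18 to adult. The clock output factor Dbp rose by 6.84 ± 0.58 (adjusted p = 4.3e-06), and its P28 duplicates were at 25.1 and 83.8.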

How the data were processed

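The authors aligned read pairs of 100 bases to the mouse genome and transcriptome, and deposited for each gene the raw read count and the RPKM. The submitters' processing notes name build mm9, and the aligner is not given in the sources used here. The labels name Trizol and the study's methods RNeasy for RNA isolation. Dividing count by RPKM gave each gene's length (largest relative error 1.2e-07) and totals of 73844259 to 112713530 reads per sample. Depth limited genes with few reads, and 3 reads per library served as the floor. Counting intervals and floors cover counting error only.

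Counts were filtered by filterByExpr (17081 genes), scaled by TMM and fitted with 1 coefficient per stage over 8 samples by glmQLFit and glmQLFTest in edgeR (version 4.0.16, R version 4.3.3). Calls needed over 3-fold change and an adjusted p (Benjamini-Hochberg) below 0.1. The SE is the log2 fold change divided by the square root of F. For a step from few reads it can lie below the counting error, and it then understates the uncertainty. The fits were tested on simulated data. The authors used DESeq. DESeq2 (version 1.42.0), other filters, scalings and thresholds, a replicate block and each sample left out were alternatives. Replicate numbers did not pair the samples.

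Members, gene lists and the rule for named genes were chosen with earlier results of these data known. Named genes were the top member of each subfamily, the 5 largest calls each way from E18 to adult, up to 5 each way in the later intervals, and listed genes of known role. Any other tested member of the subfamilies could be named too. Genes such as Cyp2d13, Cyp4f15, Cyp2c65 and Cyp2c66 met none of these ranks. Cyp20a1, Cyp21a1, Cyp26b1, Cyp26c1, Cyp2u1, Cyp39a1 and Cyp46a1 were named after their values were seen. Neighbours and promoters came from RefSeq (GRCm38.p6), in which 84 members had a gene and 61 a promoter, and shared windows from GENCODE M21 transcripts. No coordinates of the authors' build were used. Python (version 3.11.15), pandas (version 2.3.3) and biopython (version 1.88) were used.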

Additional observations from a re-analysis of the deposited data

How the results depend on the processing

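Median-ratio scaling, DESeq2, no filter on low counts, the replicate block, a fit of the 2 stages compared and a false discovery rate of 0.05 left each of the 8 counts of risers and fallers within 1.5 times its value. With at least 10 counts in every sample, which removes members that were silent at a stage, 34 members rose and 0 fell from E18 to adult, 32 rose and 0 fell from E18 to P14, 15 rose and 2 fell from P14 to P28, and 1 fell from P28 to adult. Library size alone gave 6 fallers from E18 to adult (Cyp39a1, Cyp4f16 and Cyp2s1 in addition). A 2-fold threshold gave 5 fallers from E18 to adult, and 5 risers and 13 fallers from P28 to adult, and the 5 risers were Cyp46a1, Cyp2d9, Cyp2d12, Cyp26a1 and Cyp2c53-ps. For library size alone and the 2-fold threshold, too, the share of all genes called is not given. Leaving out each sample in turn gave 0 to 3 risers from P28 to adult and a log2 fold change of -0.02 to 2.65 for Cyp2a4 from E18 to adult. Counted as reads and not per kilobase, the share of Cyp2d at E18 was 40.3%, and that of Cyp2e1 was 55.3% at P14, 42.6% at P28 and 50.5% in adult. With Cyp3a and the sterol genes in the denominator these shares were 30.6%, 54.1%, 42.6% and 49.9%. Samples with the same replicate number did not deviate together (r from -0.293 to 0.11 over 6 pairs of stages), and the replicate block gave 58 risers from E18 to adult in place of 59, losing Cyp2a4. Below about 3 reads per library a level could not be told from 0 at this depth. At E18 this applies to the 4 tested members with no read and to Cyp2a4, Cyp2c39 and Cyp2c66. In the mean of the 2 E18 libraries it also applies to Cyp2c37, Cyp2c50, Cyp2c54 and Cyp4a31 (3 and 1 reads) and to Cyp2c65 (5 and 0). Cyp2c29 had 0 reads in the first E18 library and 6 in the second. Cyp2c37, Cyp2c50 and Cyp2c54 had equal read numbers at E18 and shared 4.7, 8.93 and 7.59% of their transcript windows with another gene. Whether a read was counted for more than 1 gene was not tested. The cause of these changes was not tested unless stated.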
